A study of Cavia porcellus with 24 samples.

Results

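Whole blood of juvenile guinea pigs exposed before birth to betamethasone, a synthetic glucocorticoid (sGC), was compared with whole blood of saline controls at 2673518 cytosines. These were the cytosines with at least 20 reads in the pooled reads of each group, 91.3% of the 2927801 listed for blood. The sGC group comprised 6 female offspring of Hartley-strain mothers injected with 1 mg/kg betamethasone in 3 courses (gestational days 40/41, 50/51 and 60/61), and the control group comprised 6 female offspring of mothers injected with saline. Blood was drawn on postnatal day 14 from 1 animal per litter, and the hippocampus of the same 12 animals was profiled alongside, giving 24 samples in 4 groups of 6. DNA methylation was measured by reduced representation bisulfite sequencing (RRBS), which reads cytosines beside the cutting sites of the enzyme MspI and so favours regions rich in CpG. The deposited blood counts are sums over the 6 animals of a group, so that each group is a single pool, no spread between animals can be given, and every test below compares pools of reads and not animals.

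Methyl groups on mammalian DNA sit mostly on the cytosine of CpG, and because CpG reads the same on the opposite strand, the maintenance methyltransferase copies the mark to both strands when cells divide. CpG-dense islands, many of them at gene starts, are usually unmethylated, whereas scattered CpGs are usually methylated. Glucocorticoids act through the glucocorticoid receptor, a transcription factor present in most cells including leukocytes. The DNA of whole blood comes from a mixture of leukocyte classes, each with its own methylation pattern, so that a change in the makeup of the blood and a change within its cells cannot be told apart in these values. Start sites of leukocyte marker genes were not analysed here, because no gene annotation of the build of the files was used.

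The sGC pool held 319176933 reads at the tested cytosines (median 105 per cytosine, quartiles 65 and 152) and the control pool 264948569 (median 86, quartiles 53 and 126). The tested cytosines lay on 1404 scaffolds of the guinea pig assembly and belonged to 2113506 CpGs, of which 560012 were tested on both strands. The strands of a CpG are counted from separate reads of the same animals. They share no reads but share every difference between the animals, and whether their counting errors are fully separate was not tested.

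Averaged over cytosines, blood methylation was slightly higher with sGC, but over the summed reads it was not. The mean over cytosines was 56.4% in the sGC pool and 55.9% in the control pool, and the medians were 81.8% and 79.9%. Over the summed reads, methylation was 53.15% with sGC and 53.22% in controls. In these sums deeply read cytosines weigh more, and each pool weighs the cytosines by its own reads. With each cytosine weighted alike in both pools, by its smaller coverage, methylation averaged 0.415 percentage points higher with sGC. Scaffold DS563782.1, described below, alone held 2.96% of the summed reads, at 11.3% methylation with sGC and 15.6% in controls. The difference, sGC less control, averaged 0.521 percentage points (SD over cytosines 5.41, median 0.427, quartiles -1.87 and 2.76). It was 0.528 points on the plus strand and 0.514 on the minus strand. More cytosines were higher (54.0%) than lower (45.7%), and 76.2% lay within 5 points of no change. A difference of 20 points or more was seen at 21973 cytosines (0.822%), 12650 of them higher and 9323 lower with sGC. In the hippocampus of the same animals the mean difference was 1.03 points.

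The direction of the change varied with how methylated the CpG was to begin with. CpGs that were lowly methylated in control blood fell further and CpGs that were highly methylated rose further. So that level and change shared no reads, the starting level of each cytosine was the control level on the other strand of its CpG. This left 1120024 cytosines. At a starting level of 5 to 20% the mean difference was -0.833 points over 90848 cytosines, and 43.4% of them were higher with sGC. At 20 to 40% it was -0.663 points over 45614 cytosines. The sign turned in the middle of the range, at 0.302 points for starting levels of 40 to 60%. At 60 to 80% the mean was 1.62 points over 80721 cytosines, 58.6% of them higher. At 80 to 95%, the class of most methylated CpGs, it was 1.30 points over 305532 cytosines, 60.2% of them higher. In classes of 5 points the means peaked at 80 to 85%, with 1.98 points on the plus and 1.97 on the minus strand. The means were smaller at both ends of the scale, where less room was left to fall or to rise. Below 5% the mean was -0.0930 points over 347207 cytosines, and above 95% it was 0.458 points over 208186.

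**Figure D1:**
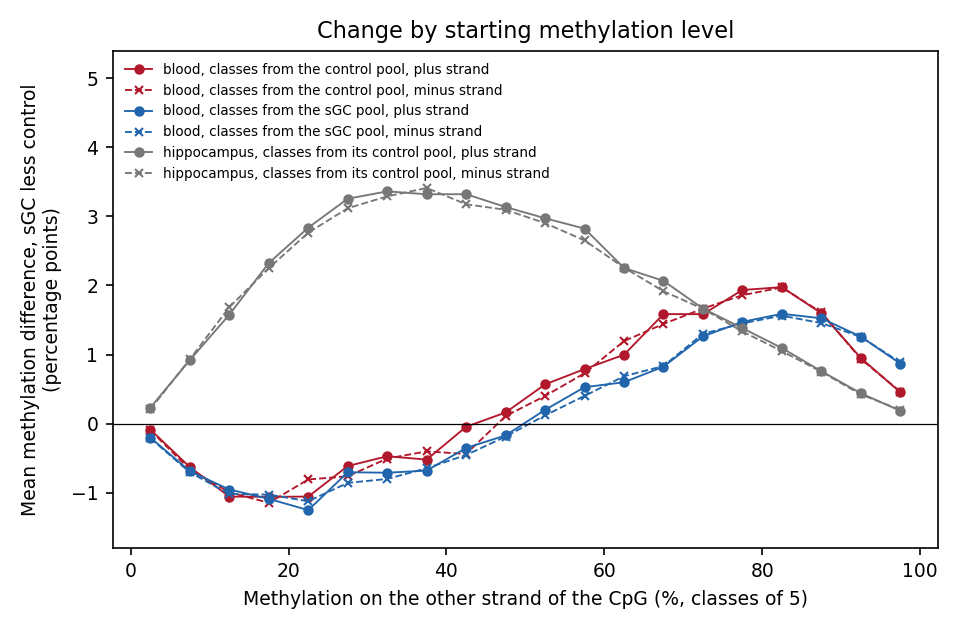
Mean methylation difference (sGC less control, percentage points) against the methylation of the other strand of the CpG in classes of 5 percentage points, separately for the plus and the minus strand. Blood lies below 0 at low and above 0 at high starting levels whether the classes come from the control or the sGC pool, while hippocampal means lie above 0 in every class.

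The plus and minus strands gave nearly the same profile, for example -0.824 and -0.842 points at 5 to 20% and 1.30 and 1.29 points at 80 to 95%. A level taken from the control pool could favour a return toward the middle through differences between the animals, which both strands share. The classes were therefore also formed from the sGC pool. The mean was then -0.838 points at 5 to 20%, -0.866 at 20 to 40%, 0.0231 at 40 to 60%, 1.14 at 60 to 80% and 1.36 at 80 to 95%, so that these low classes were below 0 and these high classes above 0 under either choice. At the ends the means were -0.208 points below 5% and 0.878 points above 95%, farther from 0 than with the control classes. The difference between the class at 80 to 95% and the class at 5 to 20% was 2.13 points with the control classes and 2.20 with the sGC classes. With the level and the change read from the same strand, which share counting error, the profile was distorted: the mean below 5% was 0.278 and that above 95% was -1.24 points.

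The same profile was seen along the genome. Among the 40 scaffolds with the most cytosines, the class at 5 to 20% was below 0 in all 40 (-1.91 to -0.290 points) and the class at 80 to 95% was above 0 in all 40 (0.536 to 1.87 points). The class below 5% was below 0 on 39 scaffolds and the class at 20 to 40% on 34, while the class at 40 to 60% was above 0 on 26. The scaffolds come from the same animals and are not replicates.

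The hippocampus differed from blood in this respect. Its own change, by its own control level on the other strand, was 1.46 points at 5 to 20%, 3.16 at 20 to 40%, 3.00 at 40 to 60%, 1.73 at 60 to 80% and 0.665 at 80 to 95%. The hippocampal means were therefore highest at intermediate levels and did not turn negative in any class. With blood cytosines classed by the control level of the hippocampus instead, the blood means were 1.18 points at 5 to 20%, 2.40 at 20 to 40% and 0.316 at 80 to 95%. These classes held all 2342490 cytosines tested in both tissues, and not only CpGs tested on both strands. The difference in profile between the tissues was not tested, because each tissue has only 1 pool per group.

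The change in blood also varied with how far blood and hippocampus lay apart in the controls. This split was chosen after the values had been seen and is given as a description. Where control blood was at least 40 points below control hippocampus, the mean difference in blood was -4.37 points (16264 cytosines). Where it was 20 to 40 points below, the mean was -2.26 points. Where the tissues lay within 5 points of each other, it was 0.117 points (536279 cytosines). Where blood was 20 to 40 points above hippocampus the mean was 2.42 points, and where it was at least 40 points above, 4.98 points (50969 cytosines). The level of the tissue whose change was read came from the other strand and that of the other tissue from the cytosine itself, and gaps formed from the sGC pools gave -4.46, -2.46, 0.129, 2.67 and 5.19 points for the same classes.

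The gap went with the change at a held blood level as well. Among CpGs at 80 to 95% in control blood, the mean difference was 0.386 points where the tissues lay within 5 points and 5.22 points where blood was at least 40 points above. Among CpGs at 5 to 20%, it was -0.313 points where the tissues lay within 5 points and -5.22 points where blood was at least 40 points below. The profile by starting level was correspondingly flatter at CpGs where the tissues lay within 5 points, with -0.312 points at 5 to 20% and 0.387 points at 80 to 95%. The hippocampal change ran the same way across these gap classes, from -3.18 points at the lowest gap to 5.41 points at the highest. With gaps from the sGC pools, a check added after seeing the data, it ran from -3.21 to 5.45 points. At the highest gap the level was low in hippocampus, with a mean control level of 28.3% there against 82.7% in blood. The part that a difference in cell makeup between the pools has in these values was not tested.

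**Figure D2:**
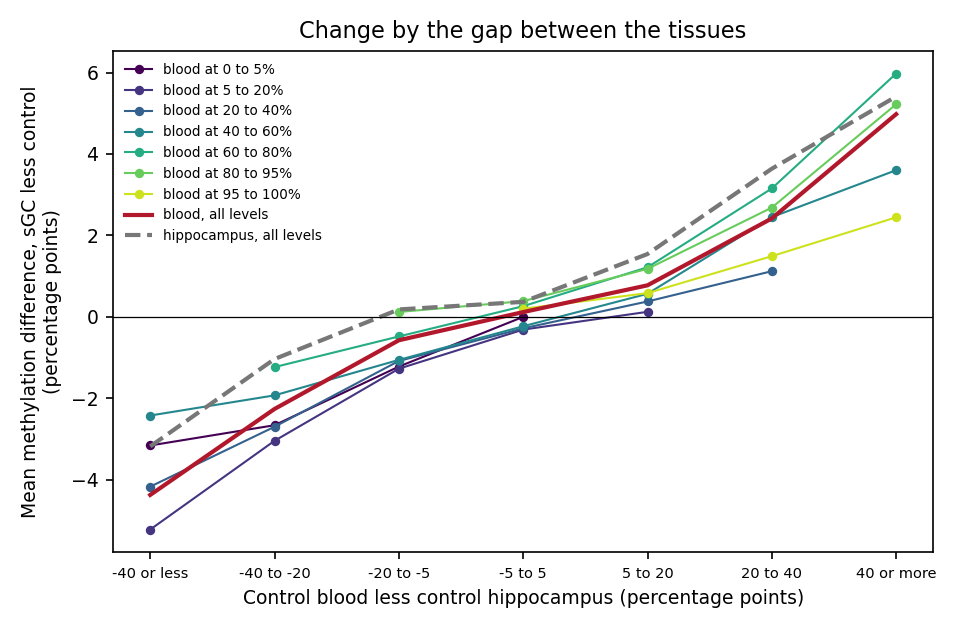
Mean methylation difference (sGC less control, percentage points) by the gap between control blood and control hippocampus in classes of percentage points, for each starting level of blood and for all levels in blood and in hippocampus. Means in blood run from -4.37 points at the lowest gap to 4.98 points at the highest.

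CpG density was counted as the number of other listed CpGs within 100 bp. Sparse regions were highly methylated and rose with sGC, and the densest regions were nearly unmethylated and hardly moved. With 0 to 3 neighbours, mean methylation was 78.8% in the control pool and 79.6% in the sGC pool, a mean difference of 0.845 points. The difference shrank with each step in density, to 0.666 points at 4 to 7 neighbours, 0.381 at 8 to 11, 0.151 at 12 to 15 and 0.0392 at 16 to 19. With 20 or more neighbours methylation was 12.7% and 12.6%, and the mean difference was -0.0812 points. Without cytosines covered by over 1000 reads in either pool, the mean there was -0.0466 points. The hippocampal means were 1.35 points at 0 to 3 neighbours and 0.522 points at 20 or more.

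With starting levels evened out, the steady fall with density was no longer seen. Weighted to the starting levels of all CpGs tested on both strands, the means from the sparsest to the densest class were 0.300, 0.392, 0.436, 0.435, 0.384 and 0.261 points, with no steady order. With starting levels from the sGC pool they were 0.0913, 0.312, 0.427, 0.465, 0.463 and 0.457 points, lowest in the sparsest class. At a held starting level, the means differed with density in most classes. At 5 to 20% methylation, the mean difference was -1.79 points with 0 to 3 neighbours, -0.848 with 8 to 11, -0.369 with 16 to 19 and -0.580 with 20 or more. At 40 to 60% the sign turned with density, from 0.684 points with 0 to 3 neighbours to -0.154 with 16 to 19 and -0.677 with 20 or more. With classes from the sGC pool the corresponding means were 0.216, 0.0908 and -0.886 points, so that the densest class alone was below 0. At 60 to 80%, the mean difference was 1.61 points with 0 to 3 neighbours, 1.68 with 8 to 11 and 0.195 with 20 or more. With classes from the sGC pool it was 1.27, 1.01 and 0.854 points, a smaller contrast between the sparsest and the densest class. At 80 to 95% density made little difference, with means from 1.10 to 1.35 points.

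**Figure D3:**
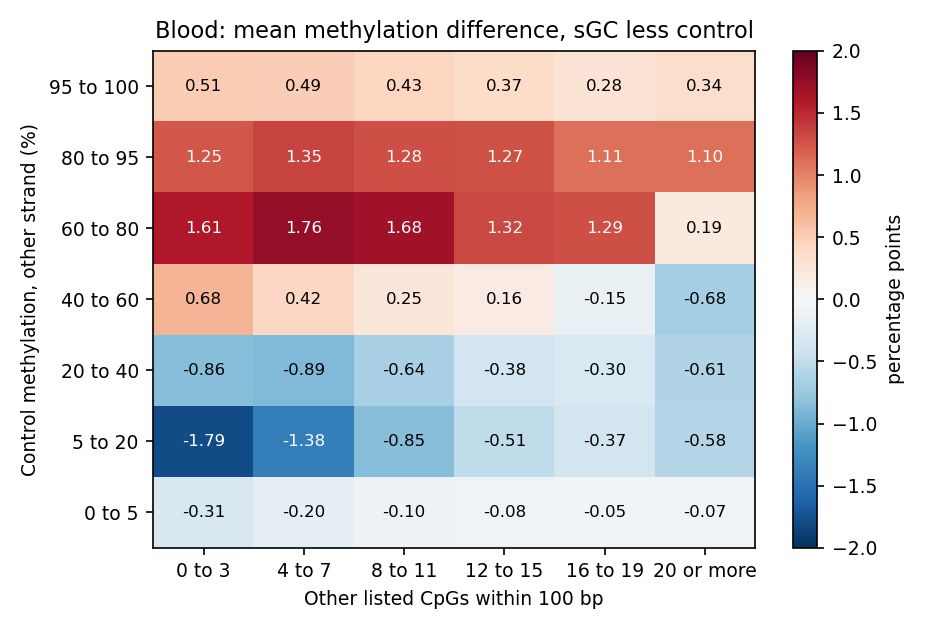
Mean methylation difference in blood (sGC less control, percentage points, colour and number) for each starting level (control methylation of the other strand, %) and each class of CpG density (other listed CpGs within 100 bp). Cells at 5 to 40% are below 0 and cells from 60% upward are above 0 at every density.

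Differences at single cytosines were mostly counting error. Over the 560012 CpGs tested on both strands, the SD of the difference on a single strand was 5.10 points, of which the counts alone give 4.25, and the covariance between the strands left a shared SD of 2.38 points. The Pearson correlation of the strands was 0.217 across CpGs, which are not independent, and the strands had the same sign at 53.7% of CpGs. The shared SD was highest for CpGs of intermediate methylation, at 4.99 points for mean levels of 40 to 60%, and 0.508 and 0.487 points below 5% and above 95%. For intermediate CpGs (20 to 80%) it was similar across densities. It ran from 4.37 points with 0 to 3 neighbours to 4.79 with 16 to 19, and was 4.67 with 20 or more. Over all densities together, blood CpGs of intermediate methylation thus differed most between the pools.

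Differentially methylated cytosines (DMCs) were called from the methylated and unmethylated reads of the pools with Fisher's exact test (two-sided), at a Benjamini-Hochberg adjusted p under 0.05 and a difference of at least 5 points. There were 9673 DMCs in blood, 0.362% of those tested, where 159646 (5.97%) had an unadjusted p under 0.05. Of the DMCs, 5896 were hypermethylated with sGC (0.221% of those tested, median difference 17.1 points) and 3777 hypomethylated (0.141%, median -13.5 points). In hippocampus the same test gave 3337 DMCs (0.128%), 2198 hypermethylated (0.0842%) and 1139 hypomethylated (0.0436%). Animals within a pool can differ by more than counting error, which the test does not see, so that its p-values are too small for a statement about animals. With the chi-square of each cytosine divided by the inflation factor over all of them, 1.72, the number of DMCs was 1499 and the hypermethylated share was 35.1% in place of 60.95%.

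By starting level, the DMCs were split by direction more sharply than all cytosines were. Part of this split comes from the test, because counting error is smaller near the ends of the scale. At 80 to 95%, 1532 of 1650 DMCs were hypermethylated, and at 60 to 80%, 678 of 844 were. At 5 to 20%, 973 of 1077 were hypomethylated. Between these, 211 of 362 DMCs at 40 to 60% and 139 of 398 at 20 to 40% were hypermethylated. Cytosines with over 1000 reads in either pool made up 192 of the DMCs at 5 to 20% and 125 of those at 20 to 40%. Of all 655 DMCs at such depth, 556 were hypomethylated, 419 of them on scaffold DS563782.1 alone. The other strand, which took no part in the call, moved the same way: where the plus strand was called hypermethylated (1422 CpGs, mean 19.2 points), the minus strand averaged 10.8 points and was higher in 90.4%. Where the plus strand was called hypomethylated (871 CpGs, mean -17.2 points), the minus strand averaged -10.9 points and was lower in 91.8%.

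Hypermethylated DMCs lay where blood is the more methylated tissue. Of these DMCs, 5880 were also listed for hippocampus. Their median was 76.9% in control blood, 94.9% in sGC blood, 28.8% in control hippocampus and 38.8% in sGC hippocampus. The mean of the blood pools exceeded the mean of the hippocampal pools by at least 10 points at 79.4% of them, against 21.2% of all cytosines tested in both tissues. Hypomethylated DMCs were the reverse, with 3759 also listed for hippocampus. Their medians were 19.8% in control blood, 5.75% in sGC blood, 62.1% in control hippocampus and 50.4% in sGC hippocampus. The mean of the blood pools was at least 10 points below that of the hippocampal pools at 51.4% of them, against 6.70% of all. The hippocampal difference had the sign of the blood difference at 90.5% of hypermethylated and 88.4% of hypomethylated DMCs and at 53.1% of all cytosines. The tissues come from the same animals, and the blood levels enter both the call and the gap. A z test of the difference between the changes in the tissues called 269 of 2342490 cytosines (0.0115%), 182 of them also DMCs in blood.

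By density, the share of cytosines called was 0.360% with 0 to 3 neighbours and highest, 0.474%, with 4 to 7. It fell to 0.166% with 16 to 19 neighbours. Hypermethylated DMCs outnumbered hypomethylated ones in each of these classes, for example 2316 to 1297 with 4 to 7 neighbours. In the densest class, with 20 or more neighbours, the share called was 0.412%, with 104 hypermethylated and 498 hypomethylated DMCs. Without cytosines covered by over 1000 reads in either pool, the share there was 0.133%, with 99 hypermethylated and 94 hypomethylated DMCs.

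Many of the densest DMCs lay on scaffold DS563782.1, whose cytosines were read 39.5 times as deeply as the median cytosine. Between positions 454 and 26516 of this scaffold 1793 cytosines were tested, with a median of 4199 reads in the sGC pool and 3315 in the control pool. The summed methylation was 11.3% with sGC and 15.6% in controls. The mean difference was -3.08 points, with -3.04 on the plus and -3.12 on the minus strand. Of its 463 DMCs 452 were hypomethylated. In hippocampus the mean difference on the scaffold was -1.38 points, with 95 of 99 DMCs hypomethylated. At such depth small differences pass the test. Over all scaffolds, cytosines with over 1000 reads numbered 3203 and gave 655 DMCs, 99 of them hypermethylated. Of these 655 DMCs, 423 lay on DS563782.1.

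The DMCs formed 6147 clusters, joined across gaps of up to 200 bp. Of these, 4619 held a single DMC and 619 held at least 3, of which 368 were hypermethylated throughout, 235 hypomethylated throughout and 16 mixed. The clusters described here are the 10 of each direction with the most DMCs and up to 1000 reads per cytosine and pool on average. Their values chose them and are given as a description. In ranking all clusters, 7 of the 10 hypomethylated ones and 1 of the 10 hypermethylated ones were over this limit. The hypermethylated one lay on DS562911.1 from 11183544 to 11183644, with 19.5% methylation with sGC and 13.8% in controls.

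Hypermethylated clusters had a summed methylation of 48.6 to 82.3% (median 76.1%) in the control pool and 75.03 to 97.8% (median 93.5%) in the sGC pool. Control hippocampus was lower than control blood in 9 of the 10. The cluster with the most DMCs (21 of 46 cytosines) lay on scaffold DS562864.1 from 40085938 to 40086380 of cavPor3, with 95.2% methylation with sGC and 80.8% in controls. Hippocampal methylation there was 10.2% with sGC and 4.51% in controls. In the plot of its cytosines, the sGC values lie above the control values over most of the cluster, but not at every cytosine: 112 bp right of the centre, for example, the values were 90.2% with sGC and 94.9% in controls. Just left of the cluster the sGC values were still mostly higher, but farther left they were not, for example 90.7% with sGC and 95% in controls at an offset of -377 bp. A cluster of 19 DMCs on DS562867.1, from 21373562 to 21373747, overlaps the positions the study assigned to KIF21B, a kinesin motor protein, which run from 21373527 to 21373718. Its methylation was 95.4% with sGC and 76.9% in controls in blood, and 12.4% and 2.06% in hippocampus. Its most deeply read cytosine stood at 93.9% of 196 reads with sGC (95% Wilson interval 89.6 to 96.5%) and at 79.5% of 166 reads in controls (72.7 to 85.0%), where intervals cover counting error alone. The cluster on DS562946.1 from 2251875 to 2252064 had the lowest control level of these, 48.6%, and 75.03% with sGC. On DS562966.1, from 3270819 to 3270998, blood rose from 55.1% to 81.7%, while hippocampus stood at 85.4% in controls and 83.1% with sGC, and this was the 1 cluster at which hippocampus was the more methylated tissue.

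Hypomethylated clusters had control levels of 8.71 to 65.5% (median 15.6%) and sGC levels of 0.490 to 39.5% (median 3.23%). Control hippocampus was higher than control blood in 8 of the 10. The first lay on DS562873.1 from 27396875 to 27397125, where 21 of 26 cytosines were DMCs and all 26 were lower with sGC. Only 38 of 4914 readings were methylated in the sGC pool (0.773%), against 448 of 3905 in the control pool (11.5%). Its most deeply read cytosine stood at 0.427% of 234 reads with sGC (Wilson interval 0.0755 to 2.38%) and at 11.9% of 177 reads in controls (7.89 to 17.5%). Hippocampal methylation over the cluster was 77.2% with sGC and 86.3% in controls. The cluster on DS562935.1 from 6764966 to 6765232 was alike, with 0.490% against 9.35% in blood and 67.1% against 72.7% in hippocampus. On DS562882.1 from 2018561 to 2018634 blood was at 0.985% with sGC and 15.2% in controls. The cluster on DS562908.1 from 7539351 to 7539486 had the highest control level, with 65.5% in controls and 39.5% with sGC in blood, and lay at 3.65% in control and 4.66% in sGC hippocampus. The clusters on DS563392.1 from 647 to 933 (48.9% in controls, 29.2% with sGC) and on DS563767.1 from 7739 to 7991 (49.4% and 27.9%) also started near the middle of the range. Scaffold DS563392.1 also holds a cluster that was over the limit of reads.

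**Figure D4:**
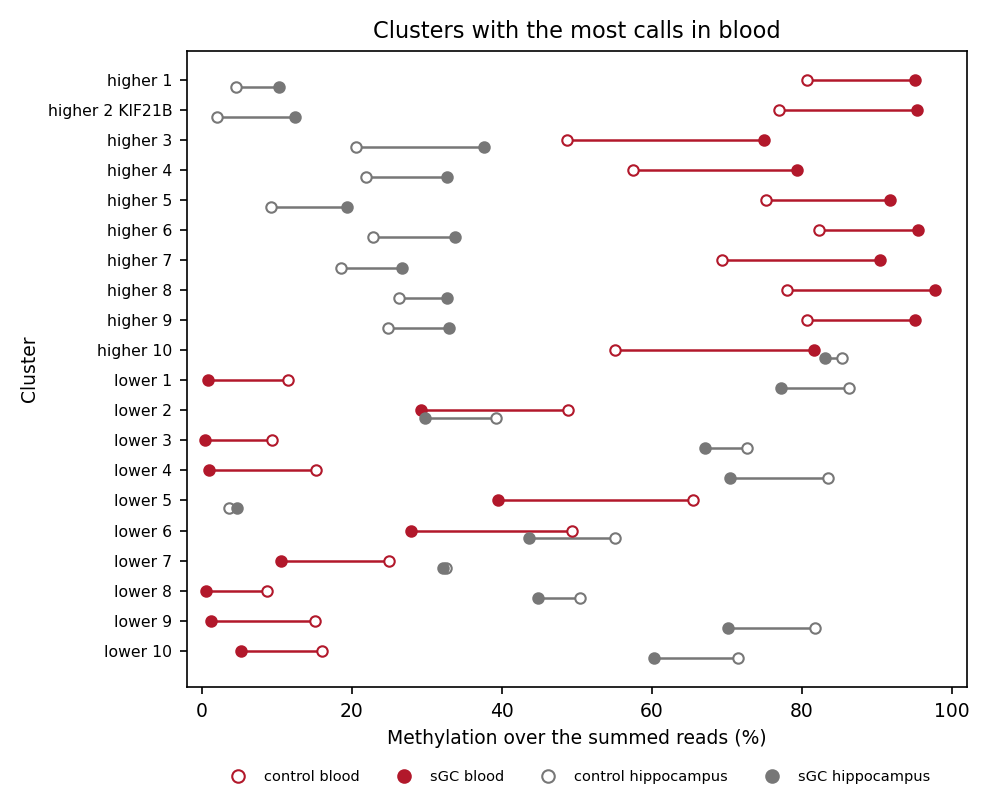
Methylation over the summed reads (%, x axis) of the 10 hypermethylated (higher) and 10 hypomethylated (lower) clusters with the most DMCs in blood, in control (open) and sGC (filled) pools of blood (red) and hippocampus (grey). Hypermethylated clusters reach 75.03 to 97.8% with sGC, and hypomethylated clusters fall to between 0.490 and 39.5%.

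**Figure D5:**
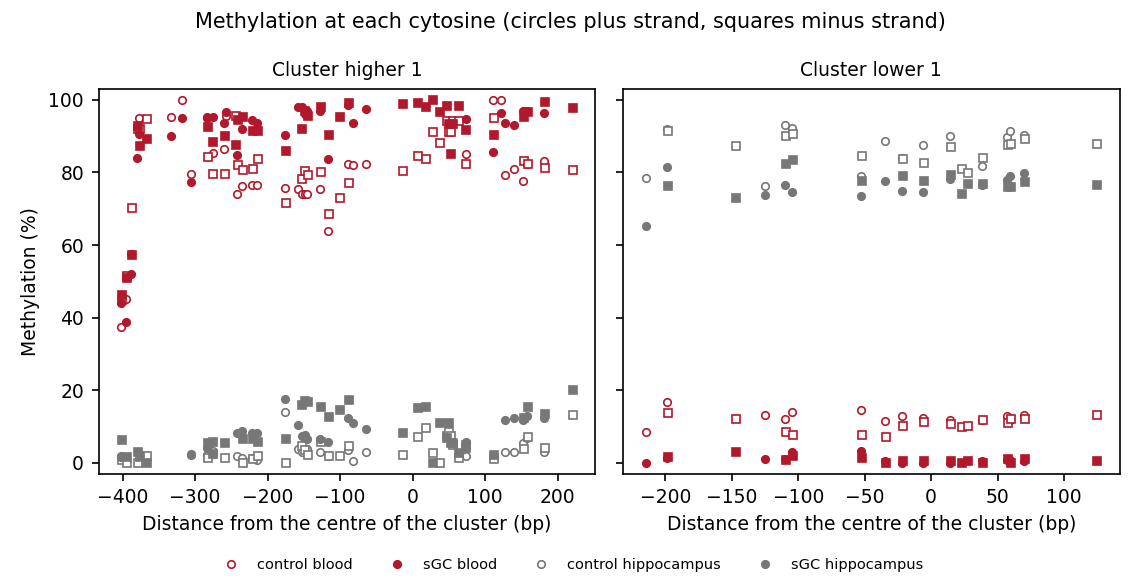
Methylation of each cytosine (%, y axis) in the pools of both tissues against the distance in bp from the centre of the first hypermethylated and the first hypomethylated cluster. Open symbols are controls and filled symbols sGC, in blood (red) and hippocampus (grey), for the plus (circles) and minus (squares) strand. In the hypomethylated cluster every sGC blood value lies near 0.

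Gene names were taken from positions that the study had named on these same samples, so that the genes stand for no independent choice. Of 170 names, 163 had a tested cytosine in blood and 60 had a DMC, 46 of them hypermethylated alone, 9 hypomethylated alone and 5 both. The spans of all named genes held 183 DMCs among 7235 tested cytosines (2.53%, against 0.362% of all tested cytosines), from which nothing is read because the study chose the names on these samples. The names used here are only a part of those the study gave for blood, and their spans differ widely in length, so that the order of genes holds within this list alone. Of the 11 with the most DMCs in it (the last place was tied), 8 were hypermethylated alone. NFIA, a transcription factor of the nuclear factor I family, had 19 hypermethylated DMCs among 584 tested cytosines on DS562857.1 between 69658605 and 69927749, with means of 95.4% with sGC and 77.9% in controls. Over all 584 the mean difference was 3.76 points, with 416 cytosines higher and 164 lower. KIF21B had 18 hypermethylated DMCs among 22 (96.1% against 76.4%). AGAP2, which acts on Arf GTPases, and PHLDB1, a pleckstrin homology-like domain protein, had 9 each, among 17 and 224 tested cytosines. At these DMCs the means were 95.4% against 73.9% for AGAP2 and 96.9% against 82.7% for PHLDB1. Over all tested cytosines the mean difference was 16.8 points for AGAP2 and 2.88 for PHLDB1.

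Among the genes with the most DMCs, RAPGEF3, CACHD1, MCPH1 and NAV1 also had hypermethylated DMCs alone. RAPGEF3, the cyclic AMP-activated exchange factor of Rap GTPases, had 8 of 11 tested cytosines called, with 96.6% with sGC and 81.4% in controls. CACHD1, a calcium channel-associated protein, had 7 (88.2% against 70.9%). MCPH1, linked to primary microcephaly, had 6 (96.6% against 80.7%), and NAV1, a neuron navigator, had 6 (99.0% against 83.7%). In hippocampal controls the called cytosines of these 8 genes were far lower, between 1.82% (KIF21B) and 31.5% (CACHD1).

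Genes with hypomethylated DMCs were fewer in this list. HM13, which encodes signal peptide peptidase, had 6 hypomethylated DMCs of 32 tested, with 58.1% with sGC and 77.6% in controls, and its hippocampal values were 58.2% and 70.2%. LGSN, the lens protein lengsin, had 6 hypomethylated DMCs of 19, with 1.57% with sGC and 11.7% in controls, and all 19 tested cytosines were lower. Its hippocampal values were 75.7% and 85.2%. PDE4B, a phosphodiesterase that breaks down cyclic AMP, had 6 hypomethylated and 2 hypermethylated DMCs over a span of 467 tested cytosines. Of these 8 DMCs, that with the largest difference, -58.3 points, rested on as few as 24 reads. Over the whole span the mean difference was 0.973 points, with 265 cytosines higher and 200 lower.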

How the data were processed

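RRBS libraries of 24 samples were processed by the authors with Trim Galore, a filter for MspI ends, Bismark 0.16.0 and SAMtools 1.7 against guinea pig build cavPor3. The deposited tables hold, for each tissue and cytosine with at least 10 reads, the counts of methylated and of all reads, summed by the authors over the 6 animals of each group. Their column of adjusted p-values, from a model with batch, was not used. No column was left without a sample group (0 columns).

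Methylation was methylated over all reads. Cytosines with at least 20 reads in both pools were kept. Fisher's exact tests, Benjamini-Hochberg adjustment over all tested cytosines and a minimum difference of 5 points gave DMCs (scipy 1.17.1 and numba 0.67.0 under Python 3.11.15, with pandas 2.3.3 and numpy 2.4.6). Batches and animals cannot be told apart in the sums. The change in blood was compared with that in hippocampus by a z test on log odds ratios, with 0.5 added to each count. Starting level and density were defined as in the text. Gene names came from the study's lists, which were available here only in part, and 168 of 170 matched RefSeq symbols of another guinea pig assembly. Named clusters and genes were those with the most DMCs, 10 of each direction and 10 genes plus ties. Lists of genes by pathway and cell type were not analysed here. The members, lists and tests were chosen with earlier results of these data known.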

Additional observations from a re-analysis of the deposited data

Results flagged for a closer look

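The change in blood differed from the change in hippocampus at 269 of 2342490 cytosines tested in all pools (0.0115%, z test on log odds ratios, adjusted p under 0.05), while 101537 had an unadjusted p under 0.05. The blood change was the lower of the pair at 237 and the higher at 32, and the signs were opposite at 65. Of the 269, 187 lay on scaffold DS563782.1 and 234 had over 1000 reads. In the longest run there, 52 cytosines between 4152 and 5249, the mean change was -6.11 points in blood and -1.93 points in hippocampus. The animals are shared by the tissues and the test compares pools of reads.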

How the results depend on the processing

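No paired analysis was possible because the deposited counts are sums over the 6 animals of a group, and so no replicate was left out. CpG density from a genome sequence was not run. Depth limits single cytosines: at these reads, counting error exceeds the shared difference.

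The 9673 DMCs became 3397 at a minimum difference of 20 points, 4754 at adjusted p under 0.01 and 1499 with the chi-square divided by its inflation factor of 1.72. Their hypermethylated share, 60.95%, was 62.2% at 100 reads, 67.8% and 62.4% at minimum differences of 10 and 20 points, 65.0% with strands summed, 53.8% at p under 0.01, 63.9% without cytosines over 1000 reads, 63.6% without scaffold DS563782.1, and 35.1%, reversed, with the inflation factor. The mean difference, 0.521 points, was 0.537 at 50 reads, 0.605 at 100 reads and 0.415 weighted by coverage.

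The contrast by starting level (80 to 95% less 5 to 20%) was 2.13 points. It was 3.24 with the level on the same strand, 2.20 with the sGC level and 2.34 with the mean of the pools. At 50 reads it was 2.30, and with the tissues within 5 points 0.699. With the hippocampal level it reversed, to -0.862. That value covers all 2342490 cytosines tested in both tissues and not only CpGs tested on both strands. The contrast by density (0 to 3 less 20 or more neighbours), 0.926 points, was 1.65 within 50 bp and 0.793 within 250 bp. At held starting levels it was -0.246 (0 to 5%), -1.21 (5 to 20%), -0.253 (20 to 40%), 1.36 (40 to 60%), 1.41 (60 to 80%), 0.146 (80 to 95%) and 0.163 (95 to 100%). The cause of these moves was not tested. Leaving out cytosines over 1000 reads or the scaffold, and the restriction to tissues within 5 points, were chosen after seeing the data.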
